A study of Arabidopsis thaliana with 8 samples.

Results

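Among the transcripts measured in these Arabidopsis thaliana cell cultures, 6 genes were followed here: the receptor-like kinase gene AT1G51850, the chitinase family gene AT4G01700, the plant defensin gene PDF2.1 (AT2G02120), and the loci AT3G60420, AT3G48640 and AT1G15010. They are 6 of 13286 genes with a probe set of their own, and they were taken by name from genes already seen to have lower signals in fum than in met on these same arrays. Their fum and met values are therefore given as a description, without a test. PDF2.1 was found by its symbol and AT1G51850 by its locus, and the other 4 by probe set, each giving 1 probe set. Grouping the 6 as defence-related rests on family names for AT1G51850, AT4G01700 and PDF2.1, and no role was assigned here to AT3G48640 or AT1G15010.

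The arrays fall into 4 titled fum and 4 titled met, each numbered 1 to 4. All 8 came from cell cultures of the Ler background (stock code NW20), grown at 24 °C with sucrose, NAA (a synthetic auxin) and kinetin (a cytokinin) in Murashige and Skoog medium. What the names stand for, and whether one group is a control, is not stated, so differences are all fum minus met. By its title, the series looked for genes at the centre of programmed cell death in plants. Whether arrays of 1 group stem from different cultures is not stated either, and p-values here then reflect only array-to-array spread, which may be technical. Signals are MAS5 values on a linear scale, whose median was 33.1 to 41.5 units per array.

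Plants detect microbes and damaged cell walls largely at the cell surface. Receptor-like kinases with leucine-rich repeats carry an extracellular domain that can bind ligands and a kinase domain inside the cell that passes the signal on. Chitinases cut chitin, a polymer of fungal cell walls, and plant defensins are small, secreted, cysteine-rich peptides, many of which inhibit fungal growth. Genes of all these families also include members that serve growth and development, and cell cultures express many defence genes without any pathogen.

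Of the receptor side, AT1G51850 encodes a leucine-rich repeat receptor-like kinase (probe set 246366_at). It read 32.2, 24.2, 42.0 and 32.2 signal units on fum replicates 1 to 4, against 127.3, 124.4, 81.1 and 95.8 on met replicates 1 to 4. Every fum array lay below every met array, and the lowest met array stood 1.93 times above the highest fum array. Within met, replicates 1 and 2 were high and replicates 3 and 4 were low. The means were 32.65 ± 7.29 in fum and 107.2 ± 22.4 in met (n = 4 each, SD), a log2 difference of -1.72 with an SE of 0.20 from the limma fit. The fum signals were dim, and with 16 added to each signal the difference was -1.33.

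Of the secreted enzymes and peptides, AT4G01700 belongs to the chitinase family (255595_at). Its signal was 34.0, 28.9, 35.4 and 23.6 on fum replicates 1 to 4, against 94.5, 79.4, 82.6 and 100.2 on met replicates 1 to 4. The groups did not overlap, and the 4 met arrays were tightly grouped, with a coefficient of variation of 11.0%, against 17.6% among the fum arrays. The log2 difference was -1.56 (SE 0.17), or 2.95-fold higher in met. Its fum signals lay not far above 21.1, the filter on low signals, and with 16 added to each signal the difference was -1.18. The size of the difference thus depends on how dim signals are treated.

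PDF2.1 encodes a plant defensin (266141_at). It read 254.6, 270.1, 221.8 and 256.0 in fum, against 608.6, 392.6, 451.0 and 489.9 in met. The fum arrays varied little, with a coefficient of variation of 8.16%, and met replicate 1 stood highest of all. The difference was the smallest of the 6 genes, at -0.94 on the log2 scale (SE 0.13). Without met replicate 1 it was -0.82, and the lowest met array was 1.45 times the highest fum array.

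AT3G60420 belongs to the phosphoglycerate mutase family, a group of proteins named for a glycolytic enzyme although many members have other substrates. On probe set 251400_at it read 140.0, 95.5, 131.6 and 91.6 in fum, against 379.6, 313.7, 407.4 and 379.1 in met. The fum arrays split into a higher pair, replicates 1 and 3, and a lower pair, replicates 2 and 4, and all lay below the met arrays. The log2 difference was -1.71 (SE 0.15), or 3.27-fold higher in met. A second probe set annotated to the same gene, 251417_at, gave almost no signal, from 1.0 to 2.9 in fum and from 1.3 to 4.0 in met, with overlapping groups. It lay far below 21.1, the filter on low signals, so it carries no information on this difference. Why the probe sets differ so far in level was not tested, nor was whether 251400_at reads AT3G60420 alone. AT3G60415, the gene beside it and in the same hand-compiled family list, had no probe set of its own.

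The other loci have no role given in the sources used here. AT3G48640 (252345_at) read 16.7, 5.1, 16.6 and 13.2 in fum, against 72.9, 56.9, 92.7 and 49.6 in met. All 4 fum arrays lay below the filter signal of 21.1, which the gene passed through its met arrays, so the size of its log2 difference, -2.50 with an SE of 0.37, is uncertain. With 16 added to each signal the difference was -1.53. Fum replicate 2, at 5.1, was the lowest value of the gene, and without that array the difference was -2.10.

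AT1G15010 (260744_at) read 495.9, 572.9, 460.2 and 431.5 in fum, against 1220.4, 1036.8, 937.8 and 1008.4 in met. The arrays of each group lay close together, with coefficients of variation of 12.5% in fum and 11.5% in met, and the groups were separate. The means were 490 ± 61.1 in fum and 1051 ± 120 in met (n = 4 each, SD), a log2 difference of -1.10 (SE 0.11).

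**Figure D1:**
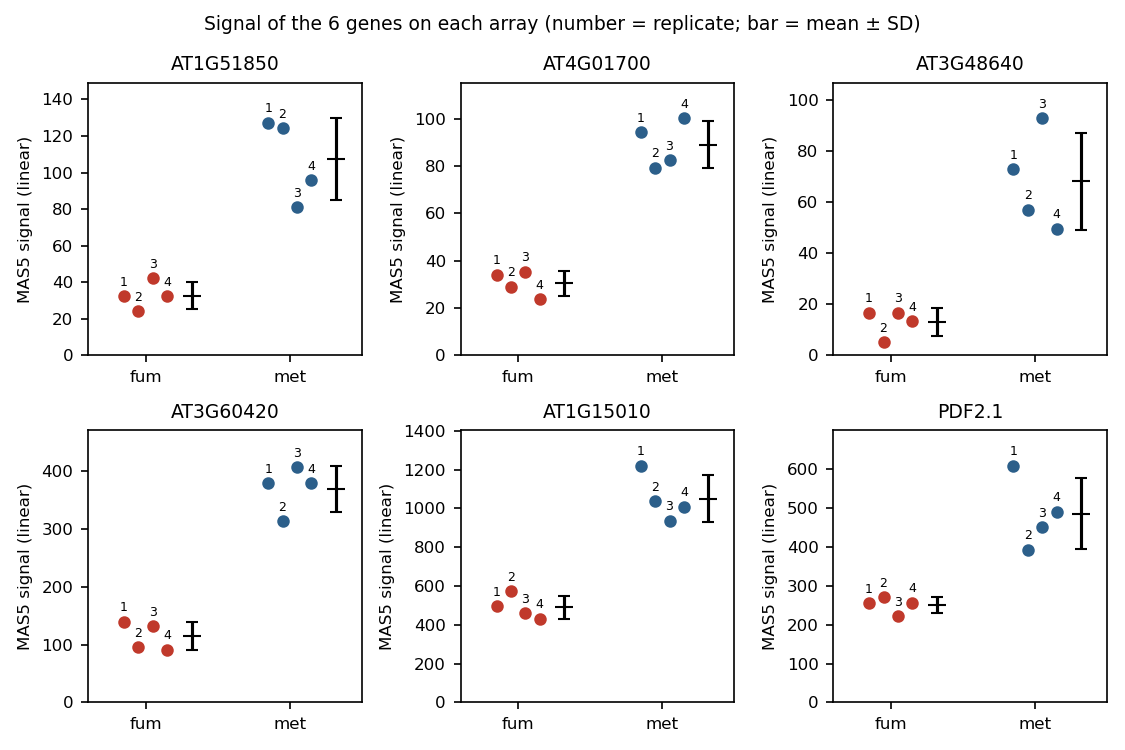
MAS5 signal (linear scale, from 0) of each gene on the 4 fum arrays (red, left) and the 4 met arrays (blue, right). Numbers give the replicate and black bars the mean ± SD. In all 6 panels every fum array lies below every met array, with the narrowest gap in PDF2.1 (270.1 on the highest fum array, 392.6 on the lowest met array).

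The separation of the groups must be read against how often it occurs. All fum arrays lay below all met arrays for 6 of the 6 genes and for 6.37% of the 13647 probe sets that passed the filter. In the other direction, 6.04% lay wholly above met. In the limma fit, 1.11% of those probe sets were called lower in fum and 1.47% higher. Since the genes were picked from this contrast, their separation says nothing beyond the choice. Their median log2 difference was -1.63, beside -0.0021 over all tested probe sets. Counted from the deepest difference, AT3G48640 stood 4th, AT1G51850 7th, AT3G60420 8th, AT4G01700 11th, AT1G15010 32nd and PDF2.1 57th of 13647. A log2 difference of -1 or below was seen in 48 tested probe sets, and PDF2.1 was not among them.

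**Figure D2:**
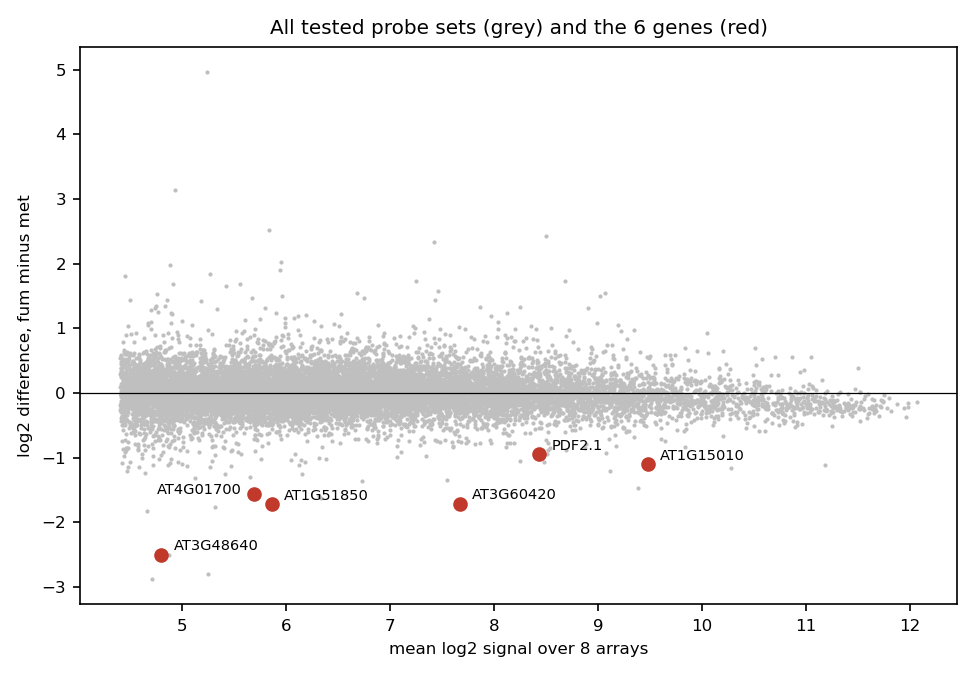
Log2 difference (fum minus met, vertical axis) against mean log2 signal over the 8 arrays (horizontal axis) for the 13647 tested probe sets in grey and the 6 genes in red. The 6 genes span differences from -2.50 (AT3G48640) to -0.94 (PDF2.1) at mean signals from near the filter to bright.

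The array-to-array spread within groups differed among the 6 genes. The within-group SD on the log2 scale was 0.64 for AT3G48640, which 97.0% of tested probe sets lay below. It was 0.32 for AT1G51850 and 0.25 for AT3G60420. It was 0.22 for AT4G01700, 0.21 for PDF2.1 and 0.17 for AT1G15010. The median of the 6 was 0.23, beside 0.22 over all tested probe sets, so apart from AT3G48640 and AT1G51850 these genes were about as repeatable as a typical probe set.

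Deviations of each array from its own group mean show how far the genes moved together once the fum and met difference is taken away. Over the 8 arrays, Pearson r between these deviations ran from -0.56 to 0.79 in the 15 pairs of genes, with a median of 0.17, and was above 0 in 10 pairs. The chitinase gene AT4G01700 and AT3G60420 followed each other most closely (r = 0.79). Both were high on fum replicates 1 and 3 and low on fum replicates 2 and 4 and on met replicate 2. AT3G48640 shared part of that pattern with AT3G60420 (r = 0.64). PDF2.1 and AT1G15010 formed another pair (r = 0.61), in which both stood highest in met on replicate 1 and highest in fum on replicate 2. AT3G48640 and AT1G15010 had the lowest r (-0.56), with deviations of -1.20 and 0.23 on fum replicate 2. On fum replicate 1 and met replicates 1, 2 and 4 their deviations had the same sign. All fum readings of AT3G48640 lay below the filter on low signals, so every r with this gene is uncertain. AT1G51850 was near 0 with AT1G15010 (r = -0.011) and reached 0.45 with AT3G48640. Signals of different genes on 1 array share the labelling and scaling of that array, and with 8 arrays these r are a description only.

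**Figure D3:**
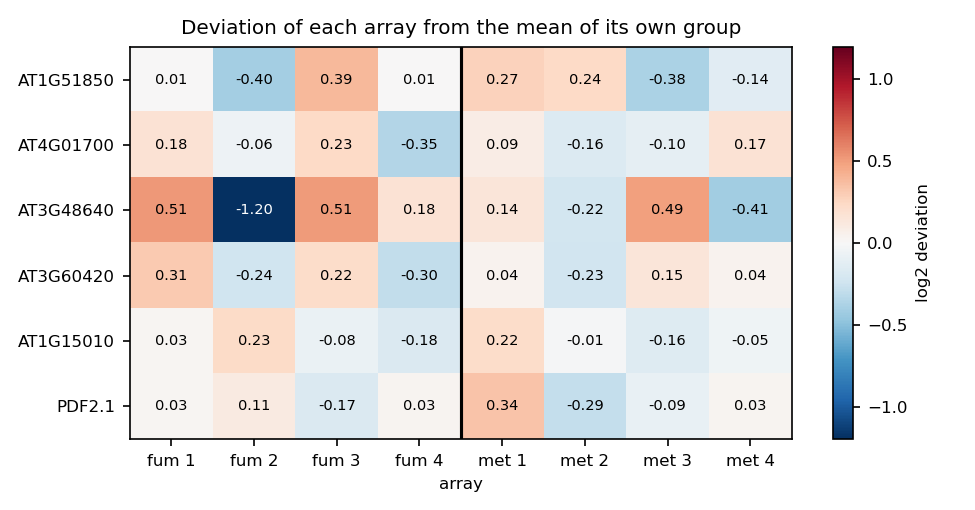
Log2 deviation of each array (columns, 4 fum then 4 met) from the mean of its own group for each gene (rows), with the value printed in each cell and red above and blue below the group mean. The deepest cell is AT3G48640 on fum replicate 2 (-1.20), and AT4G01700 and AT3G60420 show the same signs on the fum arrays.

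Over the undivided log2 signals of the 8 arrays, where the fum and met difference dominates, r between the 6 genes lay between 0.83 and 0.99. AT4G01700 and AT3G60420 were again the closest pair (r = 0.988), and each was the other's nearest gene among the 7444 tested. Outside the 6, the genes most like them were AT4G30470 for AT4G01700 (r = 0.974) and for AT1G15010 (r = 0.985), and AT2G23910 for AT3G60420 (r = 0.976). AT4G30470 averaged 192.6 ± 10.7 in fum and 328.5 ± 23.1 in met (n = 4 each, SD), and AT2G23910 averaged 46.8 ± 11.8 in fum and 141.8 ± 33.1 in met. PDF2.1 was most like AT5G52450 (r = 0.992) and AT4G37660 (r = 0.978). The nearest to AT1G51850 were AT3G17800 (r = 0.982) and AT1G21520 (r = 0.970), and those to AT3G48640 were AT5G51830 (r = 0.962) and AT5G06590 (r = 0.961). AT5G27470 also followed AT1G15010 (r = 0.983). Since genes were ranked over arrays of both groups, each of these also had a lower fum mean, with log2 differences from -1.60 (AT2G23910) to -0.24 (AT5G06590).

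Relatives of the 6 genes were read from the same limma fit through lists compiled by hand, with adjusted p-values taken over all 13647 probe sets. In the leucine-rich repeat kinase subfamily of AT1G51850, 33 of the other 44 listed loci had a probe set of their own and 3 of these passed the filter on low values. None of the 3 passed the test in either direction, while 1 had an unadjusted p below 0.05. AT1G51820, which lies in the same run of kinase genes, came nearest, at 291.6 ± 52.9 in fum and 419 ± 50.5 in met (n = 4 each, SD, log2 -0.53, SE 0.14, limma adjusted p = 0.0685). Its groups did not overlap, and it passed without fum replicate 2, the highest fum array (log2 -0.64, limma adjusted p = 0.0404). With any other array left out it did not pass, with adjusted p from 0.0822 to 0.188. AT5G59660 had a log2 difference of -0.26 (adjusted p = 0.509 with limma). AT1G51890 was level, at 55.6 ± 19.9 in fum and 54.75 ± 14.3 in met (log2 -0.012). The remaining 30 gave geometric mean signals from 0.72 to 20.9 over the 8 arrays, too dim to test.

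The gene order of the reference places AT1G51850 among close relatives, and its 3 measured neighbours were dim. AT1G51830 read 0.5 to 1.1 in fum and 0.5 to 1.2 in met. AT1G51840, on one side, read 0.5 to 3.5 in fum and 0.5 to 1.8 in met, and AT1G51860, on the other, 0.4 to 2.3 in fum and 0.5 to 1.1 in met. Cross-hybridization between such similar kinase transcripts was not tested.

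Chitinase genes other than AT4G01700 ran in both directions. Of 14 with a probe set of their own, 7 were tested, and none passed in the limma fit. At an unadjusted p below 0.05, 2 were higher and 1 lower in fum, and the median log2 difference of the 7 was 0.29, beside -0.0034 over all 7444 tested genes. ChiC, a class V chitinase gene, had the widest difference, at 31.1, 45.4, 50.8 and 39.1 in fum against 2.6, 20.0, 18.7 and 18.7 in met (log2 1.82, SE 0.58, limma adjusted p = 0.126). All its met arrays lay below the filter on low signals, which the gene passed through its fum arrays. The size of its difference is therefore uncertain, and it rests in part on the value of 2.6 on met replicate 1. Without that array its log2 difference was 1.10 with a limma adjusted p of 0.0325, and with 16 added to each signal 0.93 with 0.0444. In every other setting in which it was tested it did not pass, with adjusted p from 0.0509 (array weights) to 0.251 (without fum replicate 4).

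AT2G43620 was the tested chitinase gene nearest to AT4G01700 in its difference, at 18.2 ± 8.15 in fum and 38.4 ± 3.52 in met (n = 4 each, SD, log2 -1.24, SE 0.38, limma adjusted p = 0.114). On fum replicates 2, 3 and 4 it read 6.5, 19.8 and 21.0, below the filter signal of 21.1, so the size of its difference is uncertain. Without fum replicate 2 it was -0.80 (adjusted p = 0.0564) and with 16 added to each signal -0.70 (adjusted p = 0.0664). AT1G02360 stood at 299.7 ± 94.1 in fum and 192.2 ± 83.9 in met (log2 0.68, limma adjusted p = 0.216), and met replicate 2, at 316.7, lay among the fum arrays. Without met replicate 2 it passed as higher in fum (limma adjusted p = 0.0402). With any other array left out it did not pass, with adjusted p from 0.164 to 0.402. CHI (AT2G43570), AT3G47540, AT2G43610 and AT4G19730 had log2 differences of -0.16, -0.049, 0.29 and 0.33, with adjusted p from 0.546 to 0.901.

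Plant defensin genes tested beside PDF2.1 had lower means in fum, without passing the test. Of 11 with a probe set of their own, 3 were tested, and all 3 lay below 0 with a median log2 difference of -0.30, where 50.6% of all tested genes lay below 0. LCR68 (also named PDF2.3), the next measured gene to one side of PDF2.1, read 470.8, 395.9, 481.2 and 693.0 in fum against 947.6, 716.5, 698.6 and 702.2 in met (log2 -0.61, SE 0.16, limma adjusted p = 0.0815). The groups came within a few units of each other on fum replicate 4 and met replicate 3. Without fum replicate 4, the fum array nearest to met, LCR68 passed (log2 -0.76, limma adjusted p = 0.0333). With any other array left out it did not pass, with adjusted p from 0.0975 to 0.180.

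LCR69 (PDF2.2), on the other side of PDF2.1, read 1954 to 2083 in fum and 2190.5 to 2741 in met (log2 -0.30, SE 0.083, limma adjusted p = 0.0869). Its groups did not overlap, and it passed without met replicate 2, the lowest met array (log2 -0.36, limma adjusted p = 0.0327). With any other array left out it did not pass, with adjusted p from 0.101 to 0.214. With quantile normalization the LCR69 difference was -0.14 (adjusted p = 0.253). PDF1.4 had a log2 difference of -0.18 (adjusted p = 0.482). The defensin genes that respond to jasmonate and ethylene in leaves, PDF1.2 and PDF1.2b, were dim in both groups, at 4.35 and 5.45 in fum and 7.65 and 9.62 in met. PDF2.1, LCR68 and LCR69 encode similar peptides and lie close together, and how far their probe sets share transcripts was not tested.

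**Figure D4:**
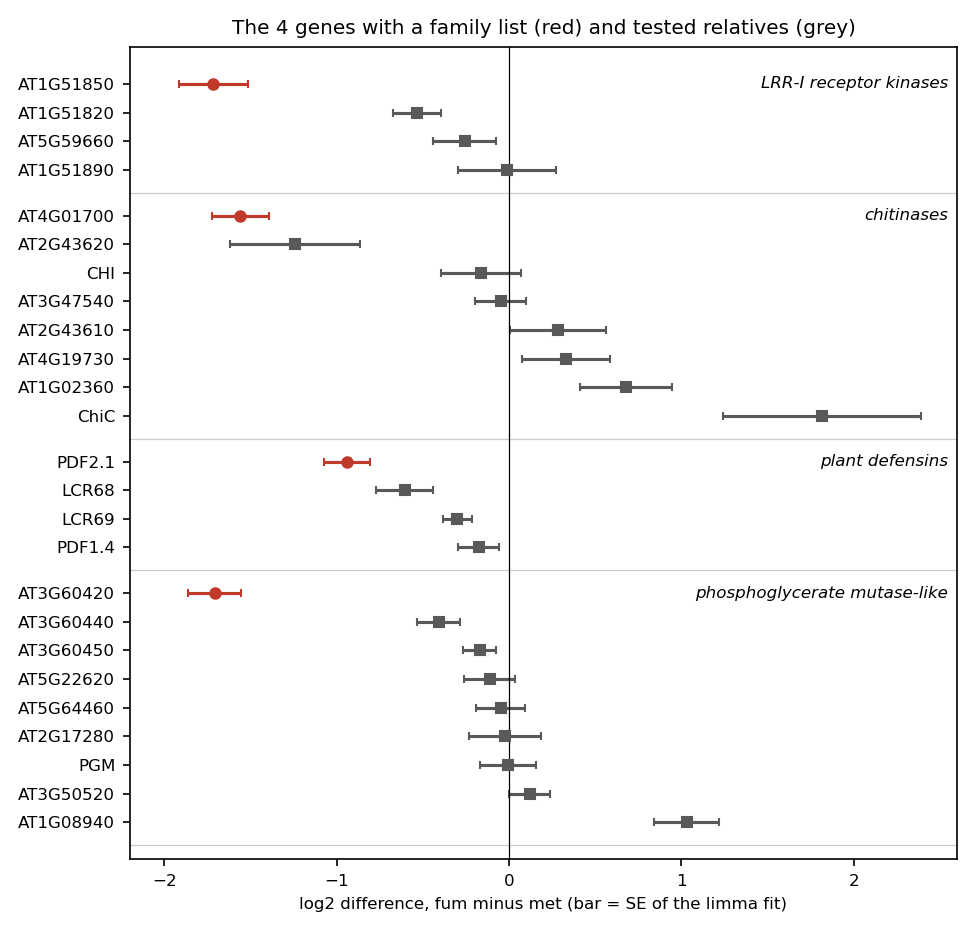
Log2 difference (fum minus met, horizontal axis, bars are the SE of the limma fit) for AT1G51850, AT4G01700, PDF2.1 and AT3G60420 in red and the tested genes of the same family list in grey. Chitinase genes lie from -1.24 (AT2G43620) to 1.82 (ChiC), and the other defensin genes from -0.61 (LCR68) to -0.18 (PDF1.4).

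Of the phosphoglycerate mutase-like genes other than AT3G60420, 8 were tested and 1 passed, as higher in fum. It was AT1G08940, at 464.5, 381.7, 623.3 and 438.4 in fum against 270.4, 292.9, 170.3 and 205.0 in met (log2 1.03, SE 0.19, limma adjusted p = 0.0174). All its fum arrays lay above all met arrays, while 1.41% of the 7444 tested genes were called higher. On 7 arrays its call was lost by leaving out replicate 4 of either group or fum replicate 1, with adjusted p of at most 0.0584 and log2 differences of 0.98 to 1.07. AT3G60440, the measured gene next to AT3G60420, had 51.2 ± 4.28 in fum and 67.95 ± 4.55 in met (n = 4 each, SD, log2 -0.41, limma adjusted p = 0.119). AT3G60450, one gene further, had -0.17 (adjusted p = 0.384). The other 5, AT3G50520, AT5G22620, AT5G64460, AT2G17280 and PGM, lay between -0.11 and 0.12.

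The neighbours of the remaining genes showed no called difference. AT1G14990 and the carboxypeptidase-like gene scpl50, on one side of AT1G15010, had log2 differences of -0.16 and -0.14 (limma adjusted p = 0.583 and 0.827). CRK (ARPC5), near AT4G01700, had -0.20 (adjusted p = 0.547), and AT3G60410, near AT3G60420, had 0.0051 with an SE of 0.43. None of the 4 nearest neighbours of AT3G48640 had a probe set of its own in the annotation used here.

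Wider defence genes were few on the annotated part of the array. Taking all 9 lists of kinase, enzyme, peptide and defence-signalling genes without the 6 genes, 31 were tested. Most were relatives already described: 3 kinase, 7 chitinase, 3 defensin and 8 phosphoglycerate mutase-like genes. The mutase-like genes were listed as relatives of AT3G60420 and not for a role in defence, so counts over the 31 are not counts of defence genes alone. In the limma fit 1, the phosphoglycerate mutase-like gene AT1G08940, was called higher in fum, where 1.41% of tested genes were. Called lower were 0, where 0.779% of tested genes were. At an unadjusted p below 0.05, 4 of the 31 were higher and 7 lower, where 8.57% of all tested genes were higher and 7.99% lower. The median log2 difference of the 31 was -0.048. Among pattern receptors and their signalling partners, the receptor gene EFR had 0.34 (adjusted p = 0.221) and the kinase gene BIK1 0.23 (adjusted p = 0.316), so neither passed.

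Of the 4 tested marker genes of pattern-triggered responses, WRKY22, a transcription factor gene, stood at 182.5 ± 14.6 in fum and 226.9 ± 20.8 in met (n = 4 each, SD, log2 -0.31, limma adjusted p = 0.153). WRKY53 had -0.29 (adjusted p = 0.615), and AT5G25930 had 0.15 (adjusted p = 0.534). In the salicylic acid list, the glutaredoxin gene GRX480 had -0.35 (limma adjusted p = 0.127) with groups that did not overlap, and SAG101 had 0.25 (adjusted p = 0.559). EIN3 of the ethylene pathway (0.055) and AT4G16260 of the glucanase list (0.038) were near 0. No gene of these signalling lists passed in either direction in the limma fit without array weights. With arrays weighted, 5 of the 31 list genes passed as lower in fum, as the count over all probe sets also grew, to 585 lower, against 151 unweighted. They were WRKY22 (log2 -0.37, limma adjusted p = 0.0288), AT1G51820 (-0.58, 0.00682), AT2G43620 (-0.99, 0.0475), LCR69 (-0.29, 0.0209) and AT3G60440 (-0.42, 0.0405).

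Each difference of the 6 genes was recomputed with 1 array left out at a time. AT1G51850 then ran from -1.85 to -1.58, AT4G01700 from -1.64 to -1.44 and AT3G60420 from -1.81 to -1.61. AT1G15010 ran from -1.18 to -1.03, PDF2.1 from -1.04 to -0.82 and AT3G48640 from -2.67 to -2.10. As the groups of these genes do not overlap, leaving out an array could change the size of a difference but not its direction.

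**Figure D5:**
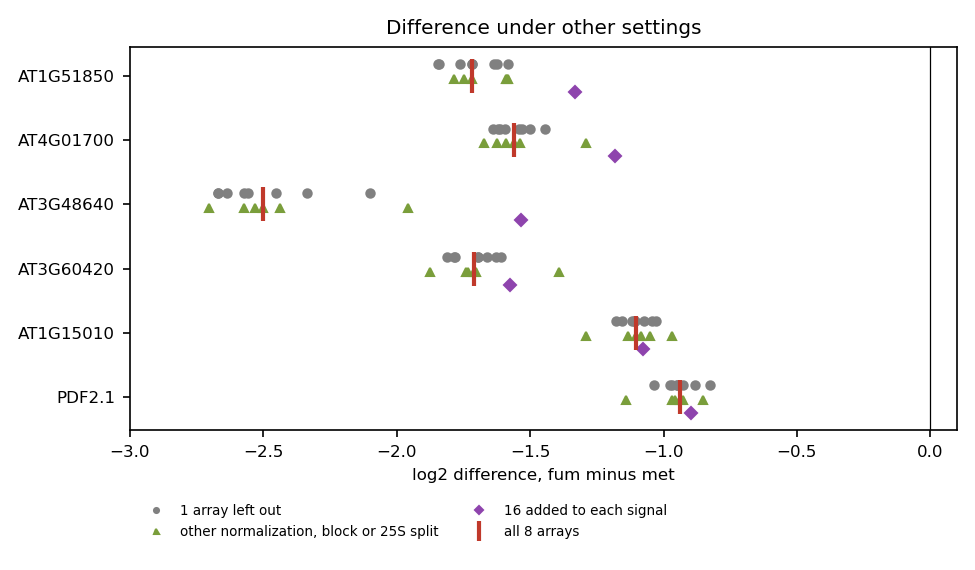
Log2 difference (fum minus met, horizontal axis) of each gene with all 8 arrays (red bar), with 1 array left out (grey circles), under another normalization, block or 25S division (green triangles) and with 16 added to each signal (purple diamonds). AT3G48640 spreads most widely, from -2.71 to -1.53.

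Several array measures differed between arrays and stand beside these results. Signal for 25S ribosomal RNA was 157.6 on fum replicate 3, 824 and 1305 on met replicates 1 and 2, and 2806 to 4491 on the other 5 arrays. Within those 5, the 6 genes had differences from -2.71 (AT3G48640) to -0.85 (PDF2.1). Within the 3 arrays with low 25S signal, of which 1 is fum, they ran from -1.96 to -1.14 for the same genes. These 3 arrays were also the highest of their groups for AT1G51850, at 42.0 in fum and 127.3 and 124.4 in met. No other of the 6 genes had this order. With the 25S class as a block, AT1G51850 had -1.59 with an SE of 0.14. A link between its signal and 25S signal was not tested. For actin, the control at the 3′ end read 12.0 times that at the 5′ end on met replicate 1, and 1.92 to 2.39 times elsewhere. Met replicate 1 was the highest met array for AT1G51850, AT1G15010 and PDF2.1, which without it had -1.63, -1.03 and -0.82. The 9 hybridization control probe sets had a geometric mean of 150.3 ± 39.4 in fum and 254 ± 50.9 in met (n = 4 each, SD). On average they were thus lower in fum, as the 6 genes were. For these controls the groups overlapped, with 179.2 on met replicate 2 against 186.3 and 182.2 on fum replicates 1 and 2. The part of the hybridization controls in these differences was not tested.

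The cultures were checked against markers of dividing cells, of which 2 of 7 had a probe set of their own. The sum of the kinase gene AUR1 and the replication gene PRL ran from 304 to 506 in fum and from 311.4 to 546 in met, and neither gene passed the test. PRL differed between arrays of 1 group. On the 3 arrays with low 25S signal it read 213.3 (fum replicate 3), 188.8 and 218.1 (met replicates 1 and 2). On the other 5 it read 247.9 to 414.3. AUR1 did not divide in this way, and the cause was not tested. Of 8 leaf-cell markers, 1 was measured, RCA, an activator of the carbon-fixing enzyme Rubisco. It read 382.7 to 464.4 in fum and 470.5 to 588.3 in met (log2 -0.29, limma adjusted p = 0.155), lower in fum on every array as the 6 genes were, and its part in their difference was not tested. Of 3 root hair markers, EXPA7 and EXPA18 summed to 11.5 to 59.4 in fum and 16.7 to 36.5 in met, and both were too dim to test. The 4 xylem and 3 seed markers had no probe set of their own in the annotation used here. In bulk RNA, fewer cells of a type and less RNA per cell cannot be told apart.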

How the data were processed

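Total RNA labelled with biotin was measured on 8 arrays. The authors' deposited table holds 1 signal intensity per probe set and array on a linear scale; MAS5 is named, without a version, in the submitters' processing notes, and further steps are not given in the sources used here. Each array is processed by itself in MAS5, and low MAS5 signals are noisy. The number of arrays limits the precision, and detection calls were not used.

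Probe sets were named through the platform annotation (13513 with 1 gene, 503 with several, 8730 others outside the 64 controls), updated through the RefSeq table of TAIR10.1, where 13436 matched. The files' build is not given, so only names and gene order were used. The 93 zeros were raised to 0.1 and signals taken to log2, with no further normalization. Probe sets with a mean log2 signal above the 40th percentile (a signal of 21.1) were tested, 13647 in all. Each gene was read from its brightest probe set.

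The test was limma (version 3.58.1, under R 4.3.3), with lmFit and eBayes with an intensity trend, two-sided, with Benjamini-Hochberg adjustment and a call at 0.05. The procedure was tested on simulated data. Named genes were the 6 genes, all tested genes of 4 family lists, up to 3 of each other list by p, the 2 genes most correlated with each, and their nearest measured neighbours. The 6 genes and all lists were chosen with earlier results of these data known. Promoter and protein sequences were not analysed here.

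Alternatives were quantile normalization, median centring, 16 added to each signal, no filter or the 60th percentile, no trend, weighted arrays, robust eBayes, a block for replicate number, all probe sets of a gene averaged, and each array left out. Splitting arrays by 25S signal was chosen after seeing the data.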

Additional observations from a re-analysis of the deposited data

Results flagged for a closer look

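None of the 6 genes had an array that stood apart from the other 3 of its group by Dixon's criterion, which compares the gap to the nearest array with the range of the group. Among 78 groups of 4 arrays so examined, which include list genes and array measures, 9 had one, where chance gives about 1 in 20.

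On met replicate 1, AT1G51820 read 494.3 against 386.6 to 402.7 on the other met arrays, LCR68 read 947.6 against 698.6 to 716.5, and ChiC read 2.6 against 18.7 to 20.0. The actin 3′ to 5′ ratio was also apart on that array, at 12.0 against 2.08 to 2.32. On met replicate 2, AT3G47540 read 450.4 against 341.8 to 350.9, AT5G59660 read 28.1 against 38.0 to 39.6, and the hybridization controls read 179.2 against 265.1 to 286.0. PGM read 100.1 on fum replicate 2, against 153.5 to 162.5 on the other fum arrays. The 25S ribosomal RNA signal was 157.6 on fum replicate 3, against 2806 to 3901.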

How the results depend on the processing

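For the 6 genes, whose groups do not overlap, leaving out arrays cannot turn a direction, so only sizes are given. With 16 added to each signal, AT1G51850 had -1.33, AT4G01700 -1.18 and AT3G48640 -1.53, as an added constant compresses dim signals. Within the 3 arrays with low 25S signal, AT4G01700 had -1.29, AT3G60420 -1.39 and AT1G15010 -1.29; the cause was not tested. With 1 array left out, ranges were -1.85 to -1.58 for AT1G51850, -1.64 to -1.44 for AT4G01700, -2.67 to -2.10 for AT3G48640, -1.81 to -1.61 for AT3G60420, -1.18 to -1.03 for AT1G15010 and -1.04 to -0.82 for PDF2.1.

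Counts of called probe sets depended on the setting, from 151 lower and 200 higher in fum. They became 52 lower and 64 higher with median centring, 62 and 102 without the intensity trend, 585 and 738 with array weights, 246 and 329 within the 5 arrays with high 25S signal, and 324 and 465 with the 25S class (low or high) as a block. With 1 array left out they ran from 47 to 159 lower and from 65 to 256 higher, lowest without fum replicate 4. The lower count moved by over 1.5 times without any 1 fum array or without met replicate 3 or 4, and the higher count without fum replicate 1, 3 or 4 or met replicate 3 or 4. The cause was not tested.

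Same-numbered arrays did not deviate together (r of -0.17, -0.30, -0.47 and 0.14 for numbers 1 to 4), so the numbers were not read as pairs. With the replicate number as a block 50 probe sets were lower and 65 higher, and 0 list genes were called in either direction. With equal groups the block cannot move a difference, only its error: AT1G51850 had -1.72 with an SE of 0.23.

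Of the 31 list genes, 1 higher and 0 lower became 0 higher with median centring or without the trend, 2 higher with 16 added, 5 lower with array weights (WRKY22, AT1G51820, AT2G43620, LCR69 and AT3G60440), and 2 higher and 1 lower within the 5 arrays with high 25S signal. With 1 array left out there were 0 to 2 higher and 0 to 1 lower. AT1G08940 lost its call with median centring (adjusted p = 0.0802), the block (0.0851) and no trend (0.0524).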
